A study of Ovis aries with 6 samples.

Results

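miR-199a-3p was examined in fetal Hu sheep rumen, in 3 small RNA libraries from fetuses of control ewes and 3 from those of feed-restricted ewes. Entries were taken where the deposited name began with oar-miR-199 or oar-miR-214, with any letter or arm. This gave 1 of the 1253 listed miRNAs, oar-miR-199a-3p, and 0 entries named miR-214. miR-214 and the other arm of miR-199a were therefore not analysed here. In the CON group the ewes ate their baseline ration, and in the UN group, labelled TR in the deposited samples, intake was held at 30% of baseline for 15 d from day 115 of gestation. Rumen was collected on day 130, at the end of the restriction, although the labels place every ewe at day 115. The fetuses were male according to the methods of the study, and the labels give the wild-type genotype for all. The series text names jejunum and ileum and each sample is labelled rumen, and the sample labels were followed. The labels do not name the fetus or the ewe behind a library, so the number of animals is not known from them. The p-values below measure the spread between these libraries.

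miR-199 and miR-214 are a conserved pair of microRNA genes known from mesenchyme, the embryonic tissue that gives rise to fibroblasts, smooth muscle and cartilage. In the mouse, miR-199a and miR-214 are cut from the same long noncoding RNA, Dnm3os, which lies antisense within the Dnm3 gene and is driven by the mesenchymal factor Twist1. A microRNA represses mRNAs that pair with its seed, the bases 2 to 8 from its 5′ end, and miR-199a-3p is known to repress the growth regulators MET and MTOR in human cells. The RefSeq sheep annotation (assembly ARS-UI_Ramb_v3.0) holds 1 gene of this name, MIR199A, on chromosome 12 inside DNM3, between METTL13 and PIGC. Coordinates are not given, since it is not certain that the reads were aligned to that assembly. In human, the miR-199a and miR-199b genes give the same 3p sequence, so reads of miR-199a-3p cannot be assigned to 1 gene.

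The sequence of the member is shown with that of miR-143, the smooth muscle miRNA to which it is compared below, of miR-21, another abundant miRNA of connective tissue, and of miR-29a, the nearest named entry by sequence. The capitals mark the seed, and the sequences come from the study's list of mature miRNAs.
oar-miR-199a-3p: aCAGUAGUcugcacauugguu
oar-miR-143: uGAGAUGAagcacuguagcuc
oar-miR-21: uAGCUUAUcagacugauguugac
oar-miR-29a: uAGCACCAucugaaaucgguu
No other of the 1253 entries had the seed of miR-199a-3p (0 entries) or its whole sequence (0 entries). The nearest entries, oar-miR-29a and novel_miR_182, were 8 single-base edits away, and the longest run of bases shared with any other entry was 8.

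miR-199a-3p was one of the abundant miRNAs of the fetal rumen. It took 1.46% of all assigned reads and stood 12th of the 1253 entries by mean level, and 11th of the 152 entries with a sheep name. Levels are given as RPM, the reads of an entry scaled to a library total of 1000000 assigned reads. The deposited column is named TPM, but its values sum to 1000000 with no division by length, which a read of a whole miRNA does not need. The libraries held 18584326 to 35555822 assigned reads.

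In the CON group miR-199a-3p stood at 14350, 19963 and 13166 RPM, from 352990, 370999 and 468141 reads. In the UN group it stood at 15475, 15401 and 11960 RPM, from 289862, 315407 and 323618 reads. The highest library was CON replicate 2 and the lowest UN replicate 3, a 1.67-fold range, and the groups overlapped. The 95% Wilson interval of a single library reached at most 0.361% of the level to either side. It covers counting error only, because copies made by PCR were not told apart, and the spread between libraries was far wider than it.

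**Figure D1:**
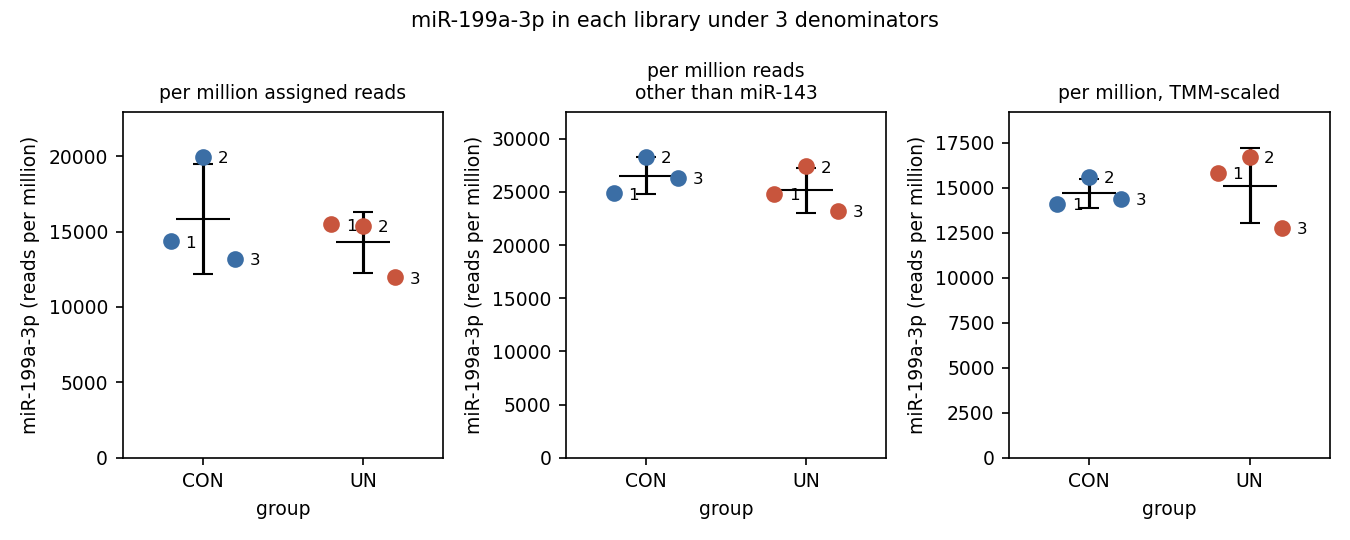
Level of miR-199a-3p in each of the 6 libraries (points, numbered by replicate) with the group mean (wide line) and SD (bars), as RPM, as RPM counted without the reads of miR-143, and as RPM after TMM scaling; each axis starts at 0. CON replicate 2 stands at 19963 RPM in the first panel and within 1.22-fold of the lowest library in the second, and the groups overlap in all panels.

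No difference between UN and CON was detected for miR-199a-3p. The mean was 15826 ± 3631 RPM in CON (SD, n = 3), and that of UN was 14278 ± 2008 RPM (SD, n = 3). The log2 fold change on the log2(RPM + 1) scale was -0.13 (standard error 0.20, limma adjusted p = 0.92 over the 567 miRNAs that passed the filter on low reads). Its 95% interval ran from -0.56 to 0.29, that is from 0.677-fold to 1.22-fold, so a fall or rise within these bounds could not be told from no change. The exact two-sided permutation test of the RPM gave p = 0.6, where 3 libraries against 3 cannot give less than 0.1. At an adjusted p under 0.05 limma called 0 of 567 miRNAs (0%). At an unadjusted p under 0.05 it called 29 (5.11%), and on the reads edgeR called 1 and DESeq2 4 at the adjusted threshold. miR-199a-3p was not among those called by any of these tests.

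The sign of this small difference was not stable. It was 0.033 with TMM-scaled RPM, which brings most miRNAs of the libraries to a common level, 0.041 with edgeR and 0.040 with DESeq2 on the recovered reads, and 0.045 without CON replicate 2, against -0.13 with all libraries. The median of all 567 miRNAs moved in the same way, from -0.12 in RPM to 0.011 with TMM scaling. Relative to that median, miR-199a-3p lay at -0.011 in RPM and at 0.022 with TMM scaling. In RPM, 417 of the 567 miRNAs (73.5%) had a log2 fold change below 0, and 48.9% lay below that of miR-199a-3p.

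In these libraries the RPM of miR-199a-3p moved against the share of miR-143. miR-143, known from smooth muscle, took 42.3%, 29.5% and 50.0% of the assigned reads in CON and 37.7%, 43.8% and 48.5% in UN. The library with the smallest share of miR-143, CON replicate 2, was the one with the most miR-199a-3p. Over the 6 libraries the Pearson r between their log2(RPM + 1) values was -0.94 (Spearman rho -0.89), and -0.83 over the 4 libraries left without CON replicate 2 and UN replicate 3. Both are parts of 1 total, so a larger share of miR-143 by itself lowers the RPM of all others. With the reads of miR-143 left out of the total, miR-199a-3p stood at 24857, 28313 and 26346 RPM in CON and at 24831, 27395 and 23222 RPM in UN. The range over the libraries was then 1.22-fold in place of 1.67-fold. The SD between libraries of a group fell from 0.27 to 0.11 on the log2 scale. On this scale 22 of 150 miRNAs averaging at least 100 RPM had a smaller SD than miR-199a-3p, against 77 of 151 in RPM. The median SD of these miRNAs also fell, from 0.26 in RPM to 0.18. With TMM-scaled RPM the SD of miR-199a-3p was 804 RPM in CON and 2065 RPM in UN, against 3631 and 2008 in RPM.

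Set against the reads of miR-143 in the same library, there were 33.9, 67.7 and 26.3 reads of miR-199a-3p per 1000 in CON and 41.1, 35.2 and 24.7 in UN. These ratios do not depend on the library total. The groups overlapped, and the log2 ratio differed by -0.25 between UN and CON (exact two-sided permutation p = 0.7). CON replicate 2 carried this direction, since the difference was 0.14 without it.

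The miR-200 miRNAs, which mark epithelium, were used as a second reference within each library. For each read of the summed oar-miR-200a, oar-miR-200b and oar-miR-200c there were 0.934, 1.09 and 0.908 reads of miR-199a-3p in CON, and 1.09, 1.28 and 1.03 in UN. Only UN replicate 2 lay clearly above all CON libraries, and CON replicate 2 lay within the UN range. The log2 ratio was 0.21 higher in UN (exact two-sided permutation p = 0.2, a difference between -0.038 ± 0.14 in CON and 0.17 ± 0.17 in UN, SD, n = 3 each). The summed miR-200 entries themselves stood at 15362, 18317 and 14495 RPM in CON and 14196, 11992 and 11663 RPM in UN, with each UN library below each CON library. Of the 3 entries miR-200b alone did not overlap between the groups, while miR-200a and miR-200c did. With TMM scaling, tried after seeing the data, the sums overlapped, since CON replicate 2 stood at 14328 RPM and UN replicate 1 at 14539 RPM. Of the 567 miRNAs tested, 70 (12.3%) were lower in UN with no overlap of the groups. In whole tissue, fewer cells of a type and less RNA per cell cannot be told apart.

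The level of miR-199a-3p was like that of let-7g, next above it in the order of mean RPM. miR-199a-3p was the higher of both in 3 of 6 libraries, with a mean log2 ratio of -0.026 ± 0.18 (SD, n = 6 libraries). let-7f, the entry above let-7g, was exceeded in 2 of 6 libraries (-0.22 ± 0.28). The difference of miR-199a-3p from each of these entries was within the spread of its ratio to them. let-7 miRNAs are known for restraining growth and for rising as tissues mature. Below it, miR-127, a miRNA of the imprinted DLK1-DIO3 region, and novel_miR_962 were exceeded in 6 of 6 libraries, by 0.21 ± 0.16 and 0.21 ± 0.21 on the log2 scale. The rank of miR-199a-3p within a library ran from 10 to 12. Ligation favours some small RNAs over others, which affects comparisons between miRNAs but much less those of 1 miRNA between libraries.

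**Figure D2:**
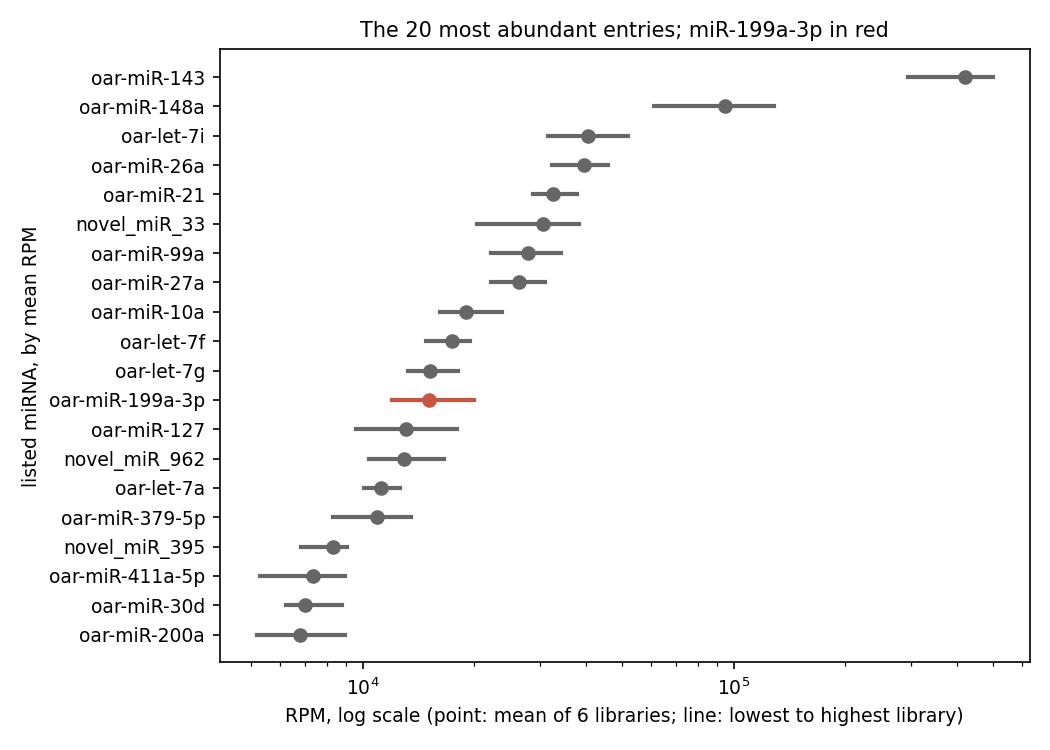
Mean RPM (points) and the lowest to highest library (lines) of the 20 most abundant of the 1253 entries over the 6 libraries, on a log axis, with miR-199a-3p in red. miR-199a-3p averages 15052 RPM, beside let-7g at 15199 RPM and above miR-127 at 13062 RPM, and miR-143 averages 419579 RPM.

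Other miRNAs known from connective tissue, smooth muscle and extracellular matrix were measured beside it. Of 11 such names, 7 had an entry with a sheep name, and all 7 passed the filter. None was called in either direction (0 up and 0 down, lowest limma adjusted p = 0.85). Of the 7, 6 had a log2 fold change below 0, as did 417 of all 567 (73.5%), and miR-143 lay above 0 (0.12). The median log2 fold change of the list was -0.080 against -0.12 over all 567. With TMM-scaled RPM the median of the list was 0.079.

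miR-21, known for its rise in fibrosis, stood at 30979, 37825 and 31624 RPM in CON and 35872, 28846 and 30324 RPM in UN, and its groups overlapped (log2 fold change -0.080, standard error 0.17). miR-125b, abundant in fibroblasts, stood at 3746, 4870 and 3610 RPM in CON and 3558, 3892 and 3960 RPM in UN. CON replicate 2 was the highest library for both, as for miR-199a-3p. miR-152, a member of the miR-148 family, was the only one of the 7 whose groups did not overlap, with 4238, 3810 and 3681 RPM in CON and 3423, 3410 and 3117 RPM in UN. Its log2 fold change was -0.24 (standard error 0.18, limma adjusted p = 0.85), and 76 of the 567 miRNAs (13.4%) did not overlap between the groups in either direction. miR-29a and miR-29b, which repress collagen mRNAs, were low, at 21.1 to 69.1 RPM and 1.07 to 3.07 RPM over the 6 libraries, and miR-22-3p ran from 171 to 240 RPM.

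**Figure D3:**
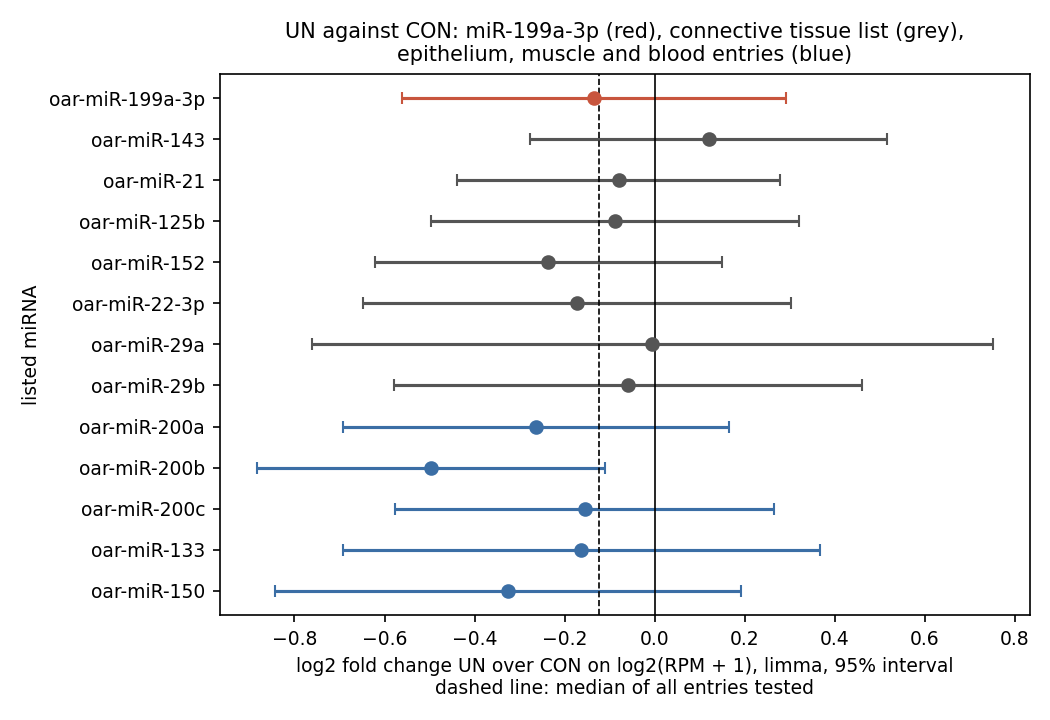
Log2 fold change of UN over CON with its 95% interval from limma on log2(RPM + 1), for miR-199a-3p (red), the 7 connective tissue entries (grey) and 5 entries of epithelium, striated muscle and blood (blue); the dashed line is the median of the 567 miRNAs tested, -0.12. The interval of miR-199a-3p, -0.56 to 0.29, spans 0 and the dashed line.

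The markers of other cell types in the tissue differed in level. oar-miR-133, a striated muscle miRNA, stood at 160 to 280 RPM over the 6 libraries, and oar-miR-150, a miRNA of lymphocytes, at 3.36 to 6.02 RPM. An entry with a sheep name was found for 1 of 3 striated muscle names, 1 of 5 blood names and 3 of 7 epithelium names. Names for endothelium and liver had 0 entries with a sheep name and were not used here. None of the 5 marker entries of epithelium, striated muscle and blood was called by limma. The lowest adjusted p among them was 0.84, for miR-200b.

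The miRNAs whose levels over the 6 libraries were most like those of miR-199a-3p were miR-106b, miR-19b, miR-362, novel_miR_1086 and miR-374b, among 150 others averaging at least 100 RPM. Pearson r of log2(RPM + 1) was 0.98 for miR-106b, 0.97 for miR-19b, 0.95 for miR-362, 0.95 for novel_miR_1086 and 0.94 for miR-374b. Most of the 150 moved in the same direction as miR-199a-3p, with r above 0 for 134 and below 0 for 16. miR-106b and miR-19b belong to clusters known for promoting cell division. All points share the library totals and the large share of miR-143. With the reads of miR-143 left out of the total, r was 0.80 for miR-106b, 0.89 for miR-19b, 0.70 for miR-362, 0.75 for novel_miR_1086 and 0.62 for miR-374b, and novel_miR_622 (0.70) then took the place of miR-374b among the highest 5. On the full RPM scale, without CON replicate 2 and UN replicate 3, r was 0.83 for miR-106b, 0.94 for miR-19b, 0.90 for miR-362, 0.89 for novel_miR_1086 and 0.69 for miR-374b over 4 libraries. These relations rest on few libraries and are given as a description.

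miR-19b stood at 160, 242 and 147 RPM in CON and 171, 183 and 145 RPM in UN, and miR-106b at 143.3, 176 and 126 RPM in CON and 145, 139 and 115 RPM in UN. For both, as for miR-199a-3p, CON replicate 2 was the highest and UN replicate 3 the lowest library. The lowest r belonged to miR-143, novel_miR_763 (-0.74) and novel_miR_696 (-0.70). Among the connective tissue entries averaging at least 100 RPM, r was 0.70 for miR-21, 0.69 for miR-125b, 0.55 for miR-22-3p and 0.38 for miR-152. With the reads of miR-143 left out these became -0.41, -0.019, 0.17 and -0.19. On the full RPM scale, without CON replicate 2 and UN replicate 3, they were 0.14, 0.30, -0.61 and -0.47. miR-143, also on that list, stood at -0.94. Over the 6 libraries the epithelial miR-200a lay closer to miR-199a-3p than any of these, with r of 0.93. This r became 0.70 with the reads of miR-143 left out, and 0.29 without CON replicate 2 and UN replicate 3. For miR-200c, miR-200b and miR-133, r was 0.55, 0.42 and -0.42.

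**Figure D4:**
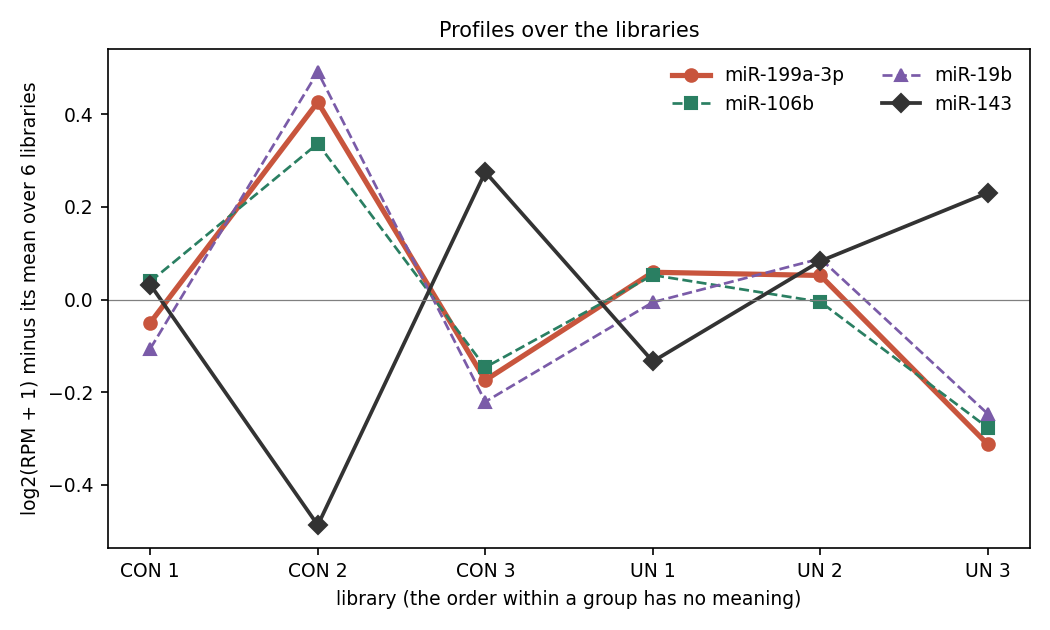
Log2(RPM + 1) of miR-199a-3p, miR-106b, miR-19b and miR-143 in each of the 6 libraries, less the mean of that miRNA over the libraries; lines only join the points of 1 miRNA. miR-199a-3p, miR-106b and miR-19b peak in CON replicate 2, where miR-143 is lowest at 294912 RPM.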

How the data were processed

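Size-selected small RNA was sequenced single-end, cleaned by the authors and aligned with Bowtie2 to the sheep genome, which gave known and predicted miRNAs. Versions of Bowtie2 and miRBase are not given in the sources read. The paper names a small RNA kit for the libraries, the labels another kit. The deposited values are RPM made by the authors, with 1 library per sample. Each value above 0 (100% of them) was a whole multiple of the smallest one of its library within 0.001 reads, which gave back the reads.

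UN was compared with CON on log2(RPM + 1) by limma 3.58.1 (trend) in R 4.3.3, with no covariate and Benjamini-Hochberg adjustment, over 567 miRNAs kept by filterByExpr of edgeR 4.0.16 (minimum count 10, minimum total 15). edgeR and DESeq2 1.42.0 on the recovered reads, TMM scaling, RPM without the reads of miR-143, pseudocounts of 0.1 and 5, no filter, a replicate block and leaving out each library were alternatives. limma and edgeR, but not DESeq2, were also run on simulated reads, and the outcome is not reported here. No library of a group was a repeat sequencing of another (chi-square per degree of freedom at least 532). Libraries made separately from the same fetus, or from fetuses of the same ewe, would not be found by this check.

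The member and the lists were chosen with earlier results of these data known. Named are the member, entries with its seed, the 2 entries next above and below it in mean RPM, the 5 most and 3 least like it over the libraries (minimum mean 100 RPM) and the marker lists. Unnamed entries were not matched to reference miRNAs, since no reference miRNA sequences were used here.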

Additional observations from a re-analysis of the deposited data

How the results depend on the processing

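No alternative brought miR-199a-3p past an adjusted p of 0.05. Its log2 fold change of -0.13 turned to 0.033 with TMM-scaled RPM, 0.041 with edgeR on the recovered reads and 0.040 with DESeq2, and ran from -0.26 to 0.045 when 1 library was left out, positive only without CON replicate 2 (0.045). limma called 0 miRNAs at the adjusted threshold (29 at an unadjusted p under 0.05). This became 1 with TMM-scaled RPM, 1 with RPM over reads other than those of miR-143, 1 with edgeR and 4 with DESeq2, and 0 to 3 without 1 library (3 without CON replicate 2, 1 without CON replicate 3). The median of the connective tissue list, -0.080, moved to 0.079 with TMM-scaled RPM, 0.079 with edgeR and 0.087 with DESeq2, and ran from -0.17 to 0.011 without 1 library. The log2 ratio to miR-143, -0.25, ran from -0.54 to 0.14 without 1 library (0.14 without CON replicate 2), and the ratio to the miR-200 entries, 0.21, from 0.12 to 0.29. The cause of these shifts was not tested.

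With the replicate number as a block the log2 fold change of miR-199a-3p stayed at -0.13 (limma adjusted p = 0.91) and limma called 0 miRNAs, with a list median of -0.080. Same-numbered libraries had correlations of their deviations of -0.072, 0.075 and 0.19, and those of libraries with different numbers ran from -0.20 to 0.17. The highest, 0.19, was between CON replicate 3 and UN replicate 3. The numbers were not taken to pair the samples, and the block changed no call. The planned comparison of entries matching miR-214 by sequence was not run, since no reference miRNA sequences were used here. For the same reason the epithelium list held only the 3 miR-200 entries, and its alternative was the same as the ratio reported. Depth did not limit the level of miR-199a-3p, which rests on at least 289862 reads in each library. The number of libraries limits the comparison.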
